A study of Arabidopsis thaliana with 9 samples.

Results

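Seedlings of Arabidopsis thaliana in which the gene JMJ24 is mutated were set against seedlings that carry an excess of it. The comparison comprises 6 of the 9 arrays of the series, the 3 titled jmj24 and the 3 titled 35S::JMJ24, chosen by title alone. The jmj24 mutant (At1g09060, stock N521260) was obtained from the European stock collection. The 35S::JMJ24 line was produced with Agrobacterium, and its promoter, taken from a plant virus, drives strong transcription in most tissues. Seedlings of both lines were 9 days old by the extraction protocol, while the growth protocol gives 10 to 14 d, in long days on soil or on plates with 1% glucose, at 23 °C by day and 21 °C by night. RNA from the seedlings was hybridised to ATH1 arrays, on which a probe set is a group of short probes for 1 transcript or several related ones. The labels do not say whether 35S::JMJ24 stands for 1 transformed plant or several, nor whether replicates were separate cultures, so the p-values reflect how far these arrays scatter, and that scatter may be technical. Because JMJ24 is altered in both lines, these 6 arrays cannot tell in which line a level departs from normal.

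JMJ24 belongs to the jumonji proteins, a family best known for enzymes that remove methyl groups from histones. The title of the study credits it with binding histones and with ubiquitin ligase activity, the attachment of a small protein tag that often marks a target for destruction, and places it in the silencing of transposons. In plants, transposons and some genes near them are kept silent by DNA methylation and by methylated histones, and small RNAs guide much of that methylation. Genes whose transcripts respond to the loss of this silencing are widely used as its reporters, among them QQS, a short gene without relatives in other plants whose level varies with DNA methylation and affects starch content.

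The mutated and overexpressed gene could not be checked, since 0 probe sets are paired with JMJ24 in the annotation used here. The 5 measured loci among the 10 on either side of it differed by -0.09 to 0.08 on the log2 scale, and none passed the test. Over all probe sets, arrays of different lines correlated at 0.9945 to 0.9973 and arrays of 1 line at 0.9963 to 0.9969, so the lines do not separate by this measure. The array medians were 7.826, 7.851 and 7.836 in the mutant, against 7.859, 7.873 and 7.867 in 35S::JMJ24. The gap between 3-prime and 5-prime probes for the control transcripts, a sign of RNA quality, was 2.93, 2.9 and 2.98 in the mutant, against 3.03, 3.02 and 3 in 35S::JMJ24 (log2). In both measures every mutant array lay below every 35S::JMJ24 array, by small amounts, and the part of either in the results was not tested. Of 31 markers listed for root hairs, roots, seeds, flowers and leaf mesophyll only 2 are measured under a name here, EXPA7 and EXPA18, expansins of root hairs. EXPA7 differed by -0.09 and EXPA18 by -0.01. The 22 measured nuclear photosynthesis genes, which mark green tissue, differed by -0.09 to 0.09, with the light-harvesting gene LHCB4.1 at 14.31, 14.28 and 14.28 in the mutant, against 14.29, 14.19 and 14.18 in 35S::JMJ24.

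The question of the comparison is which transcripts differ between loss and excess of JMJ24. Several transcripts were much lower in the mutant, and none passed the test as higher. Of 22746 probe sets, 10 differed at an adjusted p under 0.05 (limma, blocked by replicate number, Benjamini-Hochberg adjustment over all probe sets), and all 10 were lower in the mutant, which is 0.044% of those tested. The share called higher was 0%, and limma gave 771 higher and 1325 lower probe sets at an unadjusted p under 0.05. In all 10, the 3 mutant values lay below the 3 35S::JMJ24 values, and in 9 of the 10 the difference reached 2-fold. Such separation, found in 6.78% of all loci, is favoured by choosing probe sets by small p. Without a test, 16 probe sets were at least 2-fold lower in the mutant and 0 at least 2-fold higher. At 1.5-fold the numbers were 86 lower and 8 higher. After a renewed quantile normalization of the 6 arrays, 81 were at least 1.5-fold lower and 14 higher, so the excess of large differences on the lower side stayed. The smaller differences did not keep that direction, since the same normalization gave 1043 lower and 1042 higher at an unadjusted p under 0.05. Without replicate number 2 no probe set passed limma's test, with 1532 at an unadjusted p under 0.05, while 3 passed without number 1 and 7 without number 3.

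**Figure D1:**
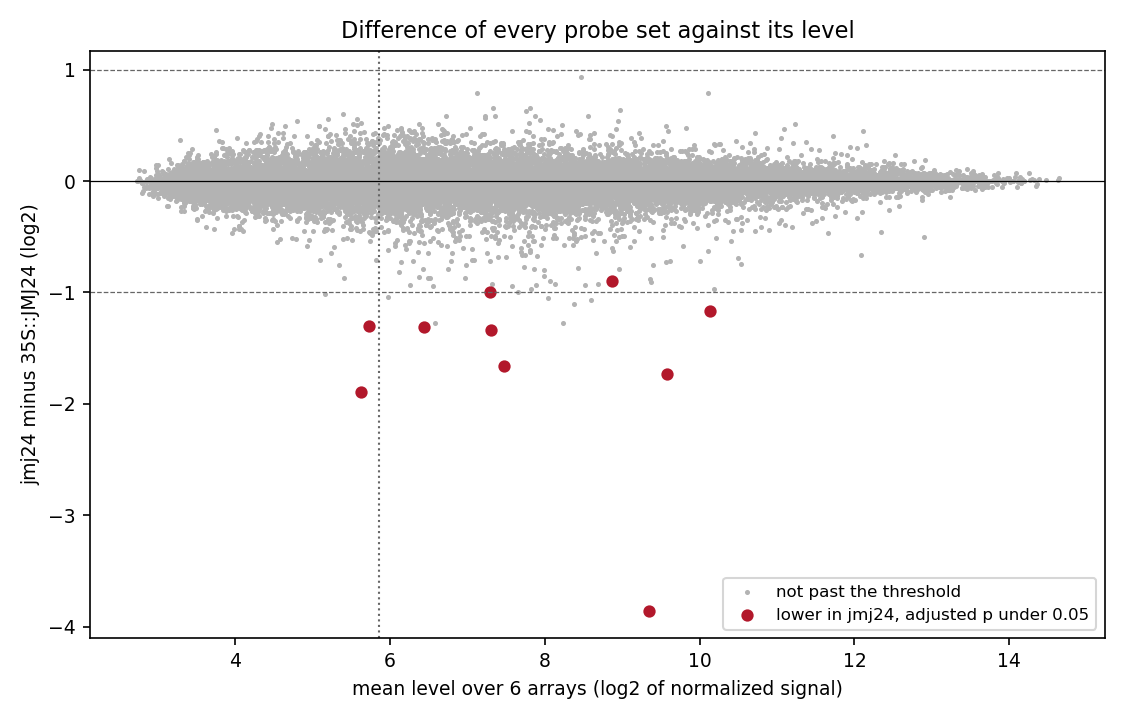
Each point is 1 of the 22746 probe sets, with its mean level over the 6 arrays on the horizontal axis and jmj24 minus 35S::JMJ24 on the vertical axis, both in log2 units. Dashed lines mark 2-fold, the dotted line is the brightest bacterial control at 5.862, and the 10 probe sets past the threshold, in red, all lie below 0 while no point reaches the upper dashed line.

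The largest difference belonged to a probe set without a gene name in the annotation used here. Probe set 264649_at read 7.33, 7.34 and 7.60 in the mutant, against 11.39, 11.26 and 11.20 in 35S::JMJ24 (log2 level). All mutant arrays were far below all 35S::JMJ24 arrays, and both groups stood well above the brightest of 27 bacterial control probe sets (5.862), used here as a mark of background. The difference was -3.86 (SE 0.103, adjusted p = 0.00112, limma), so the mutant held 6.9% of the 35S::JMJ24 level. Since JMJ24 is paired with no probe set here, whether this or another unnamed probe set reads JMJ24 itself was not tested. It passed in 13 of the 14 other settings tried, missing only without replicate number 2 (adjusted p = 0.085, limma).

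MAP1B (AT3G25740), a methionine aminopeptidase, removes the first methionine from new proteins, in the chloroplast or mitochondrion rather than the cytosol. It read 8.61, 8.90 and 8.64 in the mutant, against 10.49, 10.46 and 10.39 in 35S::JMJ24. The groups lay far apart at levels well above background. The difference was -1.73 (SE 0.0833, adjusted p = 0.0106, limma), which left 30.1% of the 35S::JMJ24 level. Like 264649_at it missed the threshold only without replicate number 2 (adjusted p = 0.134, limma). The other measured enzymes of its kind differed little: the cytosolic MAP1A by 0.02, and the organellar MAP1C by 0.08 and MAP1D by -0.08. MAP1A read 9.54, 9.55 and 9.56 in the mutant, against 9.54, 9.52 and 9.52 in 35S::JMJ24.

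AT3G60180, of the kinase family that phosphorylates UMP and CMP for nucleotide synthesis, read 6.54, 6.80 and 6.59 in the mutant, against 8.25, 8.50 and 8.17 in 35S::JMJ24. The lines did not overlap, and the pairs gave similar differences of -1.71, -1.69 and -1.58. The mean difference was -1.66 (SE 0.0666, adjusted p = 0.00571, limma), with 31.6% of the 35S::JMJ24 level in the mutant, and it was not past the threshold without replicate number 2 (adjusted p = 0.137). It passed in 9 of the 13 other settings in which it was tested.

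AT2G46910, of the fibrillin family of plastid lipid-associated proteins, read 9.56, 9.41 and 9.68 in the mutant, against 10.82, 10.55 and 10.80 in 35S::JMJ24. It is among the brighter transcripts that differed, with -1.17 (SE 0.0671, adjusted p = 0.021, limma) and 44.3% of the 35S::JMJ24 level. AT2G46915, the next locus along chromosome 2, read 6.52, 6.83 and 6.49 in the mutant, against 7.31, 7.43 and 7.34 in 35S::JMJ24, a difference of -0.75 that did not pass (adjusted p = 0.0835, limma). Both neighbours read lower in every mutant array than in any 35S::JMJ24 array, and whether the probes of one read transcripts of the other was not tested. Without replicate number 1, 2 or 3 the adjusted p of AT2G46910 was 0.103, 0.278 and 0.0524.

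AT4G04750, a putative sugar transporter, read 5.02, 4.72 and 4.32 in the mutant, against 6.79, 6.31 and 6.62 in 35S::JMJ24. The mutant values lie below the background mark and the 35S::JMJ24 values above it, so the size of its difference, -1.89 (SE 0.139, adjusted p = 0.0339, limma), is uncertain. AT2G40570, of a family of transferases that modify initiator tRNA, read 5.85, 5.77 and 5.73 in the mutant, against 7.04, 7.32 and 6.93 in 35S::JMJ24. Here too the mutant sat just under the mark, with a difference of -1.31 (SE 0.0941, adjusted p = 0.0339, limma). Unnamed probe set 249729_at showed the same picture, with 4.93, 5.17 and 5.12 in the mutant, against 6.42, 6.52 and 6.20 in 35S::JMJ24, and a difference of -1.30 (SE 0.0946, adjusted p = 0.0339, limma). These were the 3 of the 10 whose mutant mean was below the mark. Each of them missed limma's threshold without replicate number 2 (adjusted p = 0.278) and without number 1 (adjusted p = 0.103), and AT2G40570 also without number 3 (adjusted p = 0.0631).

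AT3G46370, a receptor-like kinase with leucine-rich repeats, read 6.98, 6.69 and 6.72 in the mutant, against 8.02, 7.68 and 7.69 in 35S::JMJ24. The number 1 array was the highest of each line, and within numbers the differences were even, at -1.04, -0.99 and -0.97. The mean difference of -1.0 (SE 0.0638, adjusted p = 0.031, limma) rests on that pairing, since without the replicate block its adjusted p was 0.0639. Unnamed 264041_at read 6.71, 6.82 and 6.39 in the mutant, against 7.98, 8.01 and 7.96 in 35S::JMJ24, a difference of -1.34 (SE 0.0934, adjusted p = 0.0339, limma). The remaining call, 251780_s_at, was singled out after its values were seen, to complete the 10. It read 8.54, 8.48 and 8.25 in the mutant, against 9.47, 9.35 and 9.14 in 35S::JMJ24, and its difference of -0.90 was the smallest of the 10 (SE 0.063, adjusted p = 0.0339, limma, and 0.0663 without the block). Without replicate number 1 the adjusted p of AT3G46370 was 0.137, that of 264041_at 0.103 and that of 251780_s_at 0.174, and without number 2 limma gave 0.278 for each of them. Without number 3, 264041_at passed (adjusted p = 0.049), and AT3G46370 (0.0631) and 251780_s_at (0.0872) did not.

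**Figure D2:**
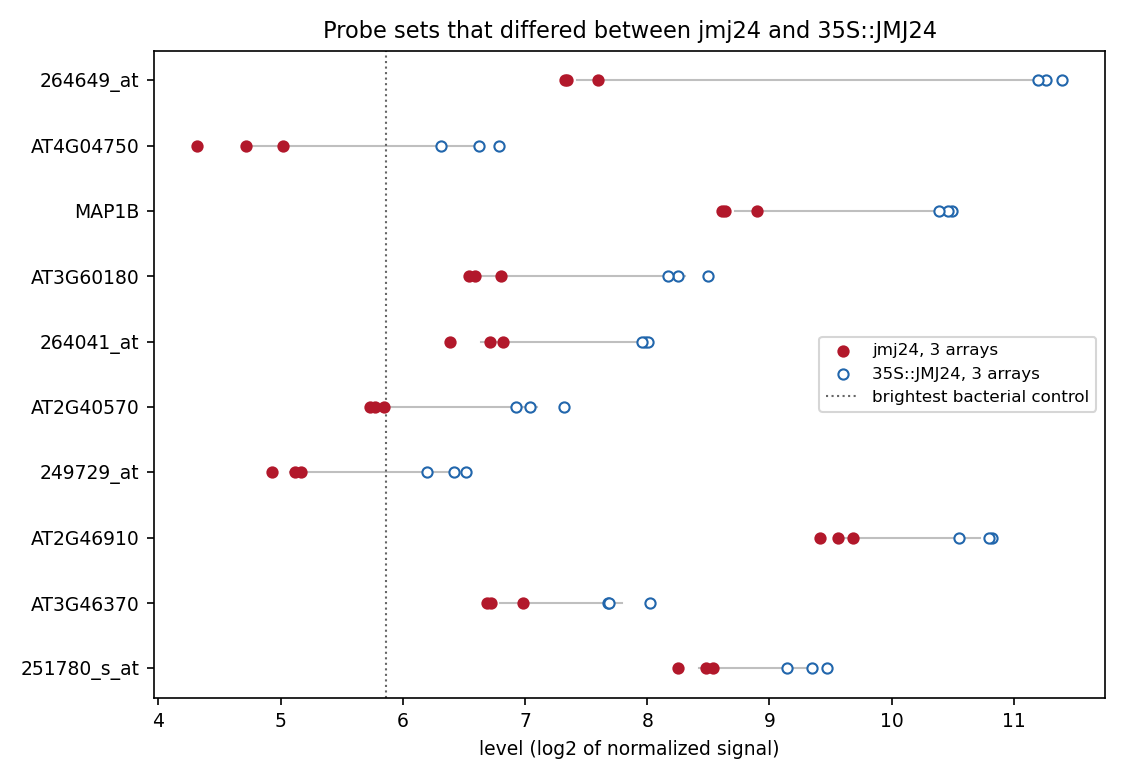
Levels of the 10 probe sets past the threshold on each array, in log2 units, with filled points for the 3 jmj24 arrays, open points for the 3 35S::JMJ24 arrays and a grey line joining the means. In each row the filled points lie left of the open ones, most widely for 264649_at at 7.33 to 7.60 against 11.20 to 11.39.

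Next in order of p on the lower side came 4 loci that did not pass. AT3G05640, a protein phosphatase of the 2C type, read 8.20, 7.99 and 7.97 in the mutant, against 9.02, 9.07 and 8.88 in 35S::JMJ24, with -0.93 (SE 0.076, adjusted p = 0.0518, limma). It lies just outside the threshold, and it passed in 5 of the other settings. FHL, a partner that carries the light receptor phytochrome A into the nucleus, read 5.95, 5.60 and 5.82 in the mutant, against 6.80, 6.71 and 6.67 in 35S::JMJ24, with -0.93 (SE 0.0824, adjusted p = 0.0549, limma). Its mutant mean was below the background mark. AT1G62045 read 9.45, 9.87 and 9.63 in the mutant, against 10.17, 10.60 and 10.34 in 35S::JMJ24. Its pairs were nearly equal at -0.72, -0.73 and -0.71, although the arrays of each line spread widely, and it did not pass (adjusted p = 0.0548, limma). AT5G46295 differed by -0.87 (adjusted p = 0.0531, limma).

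On the higher side, the 10 loci with the smallest p gave differences of 0.42 to 0.79, and none passed. AT3G53310, which encodes a protein with a B3 DNA-binding domain, read 7.52, 7.32 and 7.72 in the mutant, against 6.67, 6.60 and 6.92 in 35S::JMJ24, with 0.79 (SE 0.0661, adjusted p = 0.053, limma). Every mutant array was above every 35S::JMJ24 array, and after renewed quantile normalization the locus passed (adjusted p = 0.0401, limma). The cytochrome P450 gene CYP71B31, 2 loci away on chromosome 3, read 6.85, 7.21 and 6.99 in the mutant, against 6.35, 6.26 and 6.69 in 35S::JMJ24, a difference of 0.58 that did not pass (adjusted p = 0.305, limma). AT3G22060, a secreted protein rich in cysteine, read 9.13, 9.20 and 9.34 in the mutant, against 8.50, 8.71 and 8.84 in 35S::JMJ24 (0.54, adjusted p = 0.11, limma). The receptor-like kinase AT5G39030 read 7.44, 7.58 and 7.52 in the mutant, against 6.71, 7.02 and 7.10 in 35S::JMJ24 (0.57, adjusted p = 0.146, limma). For both, the groups did not overlap. The transcription factor AT3G25790 of the GARP type, the zinc finger protein AT3G53600 and the vesicle fusion protein ATYKT62 differed by 0.52, 0.49 and 0.42, with adjusted p of 0.181, 0.128 and 0.183. In 9 of the 10 the groups did not overlap, as a choice by smallest p favours (2.96% of all loci had all mutant values above). AT3G15440 is the exception, with 8.12, 8.56 and 8.73 in the mutant, against 7.61, 8.16 and 8.16 in 35S::JMJ24 (0.50, adjusted p = 0.135, limma).

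**Figure D3:**
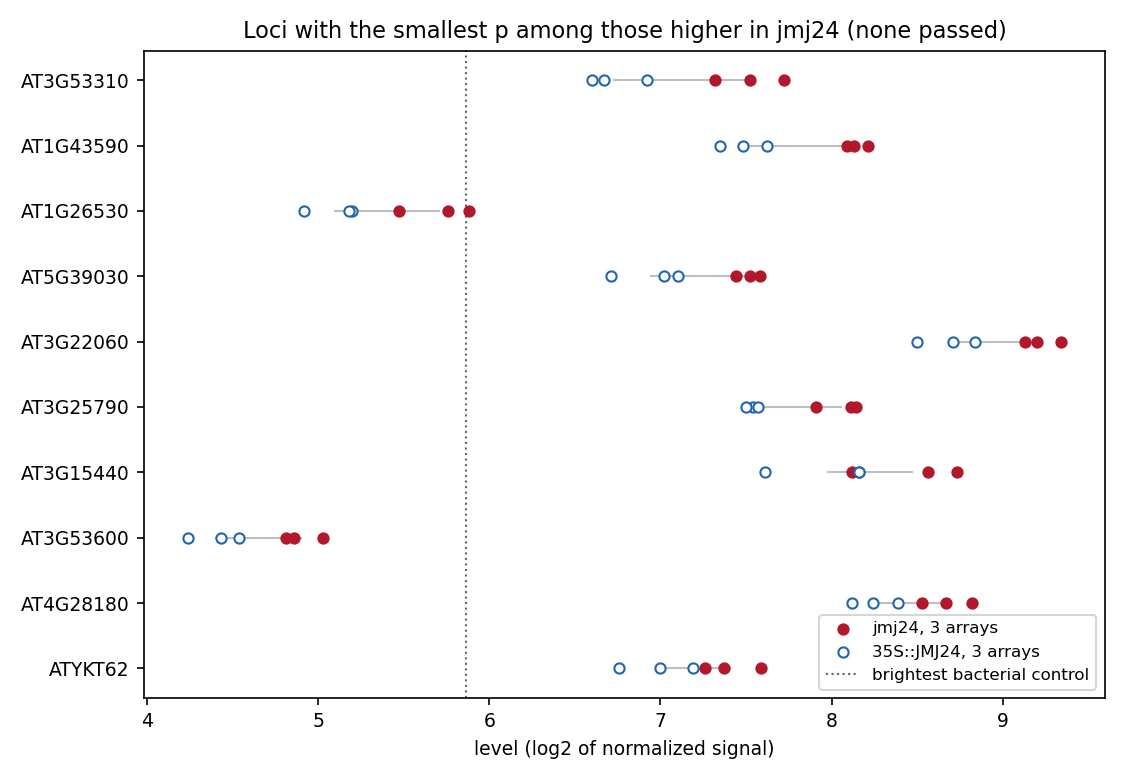
Levels on each array, in log2 units, of the 10 loci with the smallest p among those higher in the mutant, with filled points for jmj24, open points for 35S::JMJ24 and the brightest bacterial control as a dotted line. Filled points lie to the right in 9 of the 10 without overlap, which the choice by small p favours. No locus passed the threshold, and the differences of 0.42 to 0.79 are smaller than those of the calls on the lower side.

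Transposon silencing is the process named in the title of the study, and here the measured loci did not all share 1 direction. Of 18 silencing-sensitive loci listed, 8 were measured under a name, and none passed the test. In the mutant 3 read lower (37.5%, against 56.4% of all loci) and 5 higher. At an unadjusted p under 0.05, 2 were lower (25%, against 5.58% of all loci) and 1 higher (12.5%, against 3.56%). The groups were fully apart in 2, both lower (25%, against 6.78% of all loci). For the 4 above the background mark the median was -0.314, with pair medians of -0.133, -0.282 and -0.43. QQS read 7.60, 7.29 and 7.90 in the mutant, against 8.97, 9.11 and 8.53 in 35S::JMJ24. The mutant values were the lower ones in each pair, but the pairs differed widely, at -1.37, -1.82 and -0.63. The difference of -1.27 carried an SE of 0.215, well above the median SE of 0.07575 over all probe sets, and QQS did not pass (adjusted p = 0.216, limma). It passed under 2 alternatives, a variance prior with a trend (0.0297) and a fit of all 9 arrays (0.0486). AT5G38020, a methyltransferase of small metabolites, read 8.95, 8.57 and 8.16 in the mutant, against 9.44, 9.40 and 9.21 in 35S::JMJ24. It too was lower in each pair, with -0.79 (SE 0.115, adjusted p = 0.146, limma), and it passed with a trended variance prior (0.0187). Another pair of the list, both typed as pseudogenes, had the opposite sign without passing. AT4G16870, a retrotransposon of the copia type, read 9.02, 9.02 and 9.34 in the mutant, against 8.58, 8.76 and 9.20 in 35S::JMJ24 (0.28, adjusted p = 0.434, limma), and the groups overlap. AT2G01840 differed by 0.11 at levels below the background mark.

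Loci annotated as pseudogenes, a type that can cover transposon remnants as well as decayed copies of other genes, formed the largest list. Of 4849 in the annotation 998 were measured, and 0 passed limma's test in either direction. At an unadjusted p under 0.05, 27 of them (2.71%) were lower in the mutant and 55 (5.51%) higher, against 5.58% lower and 3.56% higher over all 13333 loci. As deposited, the more frequent sign at that p was thus the opposite of that over all loci. Over all 998 it was the same, with 529 lower (53%, against 56.4% of all loci) and 469 higher. After renewed quantile normalization 19 of the 998 pseudogenes were lower and 63 higher at an unadjusted p under 0.05. Over all 13333 loci the counts were then nearly even, with 593 lower and 633 higher. By separation of the groups, 38 pseudogenes (3.81%) had all mutant values below those of 35S::JMJ24 and 39 (3.91%) had all above, where 6.78% of all loci had all below and 2.96% all above. The median difference over all 998 was -0.00893, beside -0.0157 for all loci, and 826 of them averaged below the background mark. For the 172 above it the median was 0.0836, but the pairs gave 0.0353, 0.193 and -0.0112, so replicate number 3 did not share the direction. AT1G43590 read 8.13, 8.21 and 8.09 in the mutant, against 7.48, 7.62 and 7.35 in 35S::JMJ24, with 0.66 (SE 0.0675, adjusted p = 0.0822, limma). AT2G11140 read 7.04, 7.06 and 6.83 in the mutant, against 7.61, 7.52 and 7.37 in 35S::JMJ24, with -0.52 (SE 0.0653, adjusted p = 0.11, limma). Both separate the groups, in opposite directions.

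**Figure D4:**
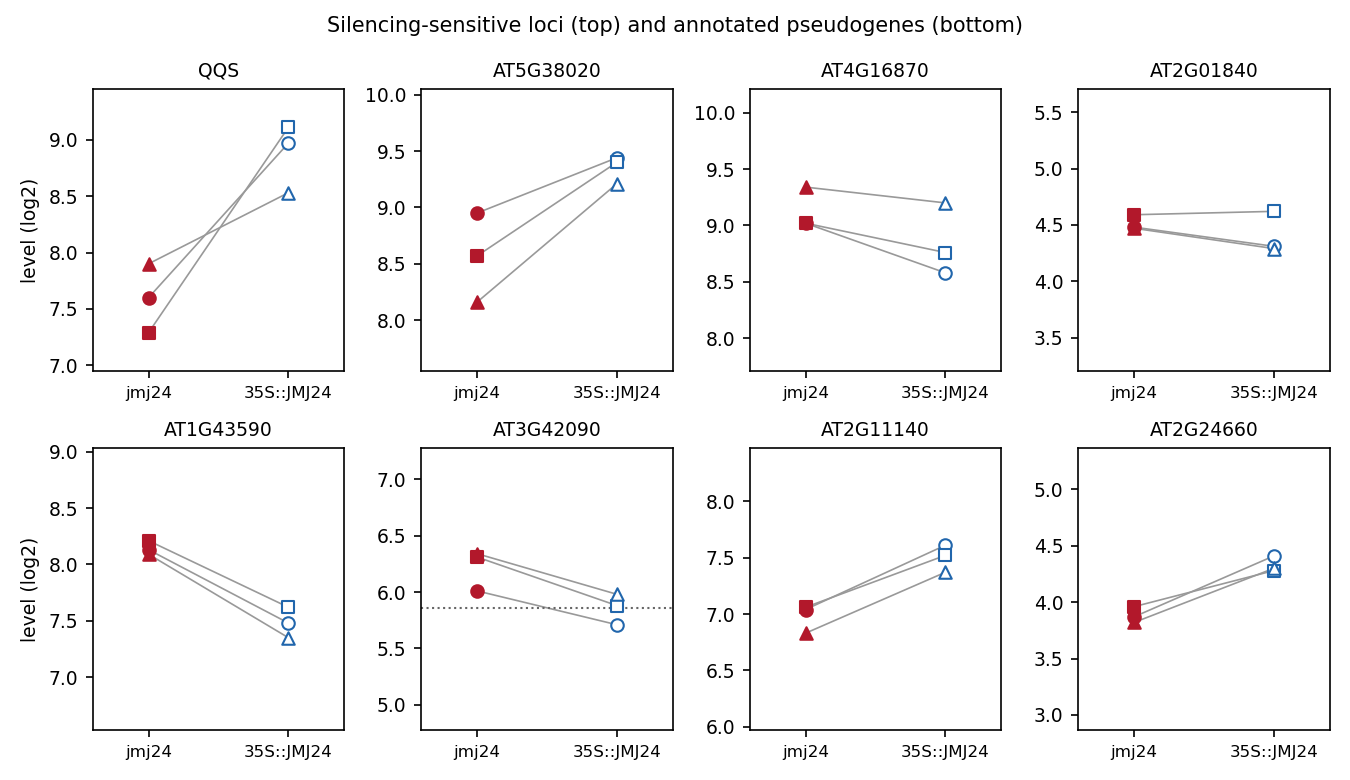
Levels (log2) of 4 silencing-sensitive loci and 4 pseudogenes on each array, with filled symbols for jmj24, open symbols for 35S::JMJ24, and a line joining arrays of the same replicate number (circle 1, square 2, triangle 3); all vertical axes span the same range, and the dotted line is the brightest bacterial control. QQS, AT5G38020, AT2G11140 and AT2G24660 are lower in the mutant in every pair, and AT4G16870, AT1G43590 and AT3G42090 higher.

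Most listed genes of the silencing machinery were not measured under a name, and the measured ones showed small differences only. Of 107 listed genes of DNA and histone methylation 3 were measured. NRPD7, a subunit of the polymerases that make silencing RNAs, read 8.04, 8.10 and 8.26 in the mutant, against 8.33, 8.40 and 8.51 in 35S::JMJ24 (-0.28, adjusted p = 0.312, limma). Its relative NRPE7 differed by 0.03, and DME, an enzyme that removes DNA methylation, by -0.02. The 11 measured jumonji proteins other than JMJ24 ranged from -0.05 to 0.16, the 7 histones from -0.18 to 0.02 and the 11 remodelling ATPases from -0.23 to 0.18. AGO7, which binds small RNAs, was the 1 measured gene of 37 listed for small RNAs, and it differed by -0.09. Of 32 genes of histone acetylation and deacetylation 2 were measured, the deacetylases HDA7 (-0.03) and HDA15 (-0.02). Among 34 measured ubiquitin ligases and conjugating enzymes, the reaction named in the study's title, differences ranged from -0.19 to 0.35 and none passed. The groups were fully apart in 6 with lower mutant values (17.6%, against 6.78% of all loci) and in 0 with higher (against 2.96%). At an unadjusted p under 0.05, 1 was lower and 1 higher (2.94% each, against 5.58% and 3.56% of all loci). The ligase ATL8 read 7.98, 8.34 and 8.54 in the mutant, against 7.68, 8.16 and 7.96 in 35S::JMJ24 (0.35, adjusted p = 0.39, limma), and UBC29, a conjugating enzyme, differed by -0.19.

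Grouped by function, the named genes differed little as lists. Of 47 lists, 39 had at least 3 measured members, and over the 1820 measured loci of all lists 1 passed, MAP1B, and 1819 did not. The list medians lay between -0.112 and 0.0701, 30 below 0 and 9 above, beside -0.0157 for all loci. After renewed quantile normalization the median of all loci was 0.00408, and several lists near 0 changed sign with it, such as the jumonji proteins (-0.00198 as deposited, 0.0229 renormalized) and the starch and sugar genes (-0.0156 and 0.0027).

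Among enzymes of secondary metabolism most members of several lists, though not of all, read lower in the mutant, as did 56.4% of all loci. At an unadjusted p under 0.05, 5.58% of all loci were lower and 3.56% higher, and the shares of the lists are given beside these. Of 50 UDP-glycosyltransferases, which attach sugars to hormones and defence compounds, 36 (72%) read lower in the mutant and 14 higher, with a median of -0.066 as deposited and -0.0449 renormalized. At an unadjusted p under 0.05, 6 were lower (12%) and 2 higher (4%), and none passed after adjustment. UGT73B5 read 7.88, 8.31 and 7.87 in the mutant, against 8.31, 8.44 and 8.46 in 35S::JMJ24 (-0.38, adjusted p = 0.392, limma). Of 21 beta-glucosidases and their relatives, which release such sugars again, 14 (66.7%) read lower, 5 of them at an unadjusted p under 0.05 (23.8% of the list), and the pair medians were -0.0326, -0.205 and 0. BGLU45, which acts on sugar conjugates of lignin precursors, read 7.42, 7.35 and 7.34 in the mutant, against 8.15, 7.98 and 7.90 in 35S::JMJ24 (-0.64, SE 0.069, adjusted p = 0.0939, limma). It separates the groups widely but did not pass. BGLU15 differed by -0.39, BGLU41 by -0.24 and BGLU42 by 0.17. Of 24 cytochrome P450 enzymes 18 (75%) read lower, with 4 lower (16.7%) and 2 higher (8.33%) at an unadjusted p under 0.05. Their pair medians were -0.111, -0.0975 and 0.01, so replicate number 3 did not share the sign. The close relatives in that family went in different directions: CYP71B24 differed by -0.45, CYP71B6 by -0.23, CYP71B31 by 0.58 and CYP71B38 by 0.37, and none passed. Of 9 genes of glucosinolate metabolism, whose products deter insects, 6 (66.7%) read lower, none at an unadjusted p under 0.05. The 9 flavonoid and phenylpropanoid genes went the other way, with 4 (44.4%) lower, 5 higher and a median of 0.0191. At an unadjusted p under 0.05, 1 of these was lower (11.1%) and 1 higher (11.1%).

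No defence or hormone gene passed the test. Of 19 jasmonate and ethylene genes 4 were lower (21.1%, against 5.58% of all loci) and 2 higher (10.5%, against 3.56%) at an unadjusted p under 0.05, with a median of 0.00763. LCR67, a defensin, read 5.36, 5.45 and 5.56 in the mutant, against 6.19, 6.74 and 6.55 in 35S::JMJ24, with -1.04 (SE 0.101, adjusted p = 0.0676, limma). Its mutant values lie below the background mark. The defensin PDF1.2, a reporter of jasmonate and ethylene, read 7.80, 8.05 and 7.57 in the mutant, against 7.12, 7.34 and 7.61 in 35S::JMJ24 (0.45, adjusted p = 0.496, limma), so the 2 defensins had opposite signs. The jasmonate regulators ORA47 and MYC4 differed by -0.31 and -0.25. Of 8 salicylic acid and immune genes, including WRKY53 (0.17) and WRKY6 (0.15), none reached an unadjusted p under 0.05. The 17 auxin genes ranged from -0.19 to 0.13 and the 5 measured for cytokinin, gibberellin and brassinosteroid from -0.10 to 0.13. Of 30 secreted signalling peptides, a list that shares LCR67, 12 read lower and 18 higher, 4 (13.3%) and 3 (10%) of them at an unadjusted p under 0.05. RALFL18, a peptide of the family that raises pH outside the cell, read 6.58, 6.95 and 6.74 in the mutant, against 7.34, 7.47 and 7.29 in 35S::JMJ24 (-0.61, adjusted p = 0.11, limma), while RALFL28 and RALFL32 differed by 0.29 and -0.21.

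No stress or clock gene passed the test. The 9 cold, drought and abscisic acid genes had the lowest median of the 39 lists, -0.112, with pair medians of -0.0345, -0.0685 and -0.0539. Of these 9, 6 read lower, 2 with the groups fully apart (22.2%, against 6.78% of all loci), and at an unadjusted p under 0.05 0 were lower and 1 was higher. COR27, a gene of cold response and of the clock, read 11.07, 11.64 and 11.93 in the mutant, against 10.78, 11.24 and 11.56 in 35S::JMJ24. The lines overlap, yet within each replicate number the mutant was higher by a similar amount, for a difference of 0.35 (SE 0.0654) that did not pass (adjusted p = 0.239, limma). The clock gene GI read 10.10, 10.09 and 10.13 in the mutant, against 10.13, 10.10 and 10.12 in 35S::JMJ24, and showed no such shift. The light signalling factor HYH differed by -0.22. The cold and drought genes COR15A, LEA18 and RD2 differed by -0.23, -0.43 and -0.11 without passing.

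Genes of carbon use and the plastid were close to level. PWD, a kinase that phosphorylates starch, read 7.93, 8.03 and 7.83 in the mutant, against 8.36, 8.27 and 8.29 in 35S::JMJ24 (-0.38, adjusted p = 0.247, limma). The sugar transporters SWEET16, SWEET6 and SWEET7 differed by -0.34, 0.22 and 0.40. Of 26 starch and sugar genes 13 read lower and 13 higher. The 69 measured genes of the plastid genome read higher in 56 cases and lower in 13, yet by -0.04 to 0.22 only, and the median was 0.0785 in number 1, -0.0906 in number 2 and 0.115 in number 3. Replicate number 2 thus had the opposite sign, and no plastid gene reached an unadjusted p under 0.05. RCA, the activator of Rubisco, differed by -0.05.

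Genes of growth and development gave single members with moderate differences. ATIM, the relative of TIMELESS, a protein of replication forks in animals, read 8.93, 8.72 and 9.10 in the mutant, against 9.86, 10.21 and 9.42 in 35S::JMJ24. The groups do not overlap, but the pairs differ so much that the difference of -0.91 had an SE of 0.21 (adjusted p = 0.318, limma). The spindle checkpoint gene BUBR1 differed by -0.24. Of 45 MADS-box and other floral regulators 17 (37.8%, against 56.4% of all loci) read lower and 28 higher. Yet the groups were fully apart in 5 with lower mutant values (11.1%, against 6.78% of all loci) and in 1 with higher (2.22%, against 2.96%). AGL42 and AGL72, closely related promoters of flowering, had opposite signs at -0.44 and 0.35, and AGL94 differed by 0.37. Of 42 microtubule and cytoskeleton genes 30 (71.4%) read lower, against 56.4% of all loci, and 1 was lower and 1 higher at an unadjusted p under 0.05. Their pair medians were -0.102, -0.0614 and 0.0537, so replicate number 3 had the opposite sign. IQD18 differed by -0.38 and TRM19 by 0.22. The 79 cell wall genes split into 43 lower and 36 higher, with TBL34 at -0.42 and XTH16 at 0.23. The 71 genes of membrane trafficking were even, at 35 lower and 36 higher. Of 51 proteases and their relatives 6 were lower (11.8%, against 5.58% of all loci) and 0 higher (against 3.56%) at an unadjusted p under 0.05, among them the carboxypeptidases scpl20 (-0.34) and scpl28 (-0.31), and 0 passed limma's adjusted threshold in either direction. After renewed quantile normalization that count was 3 lower and 0 higher.

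**Figure D5:**
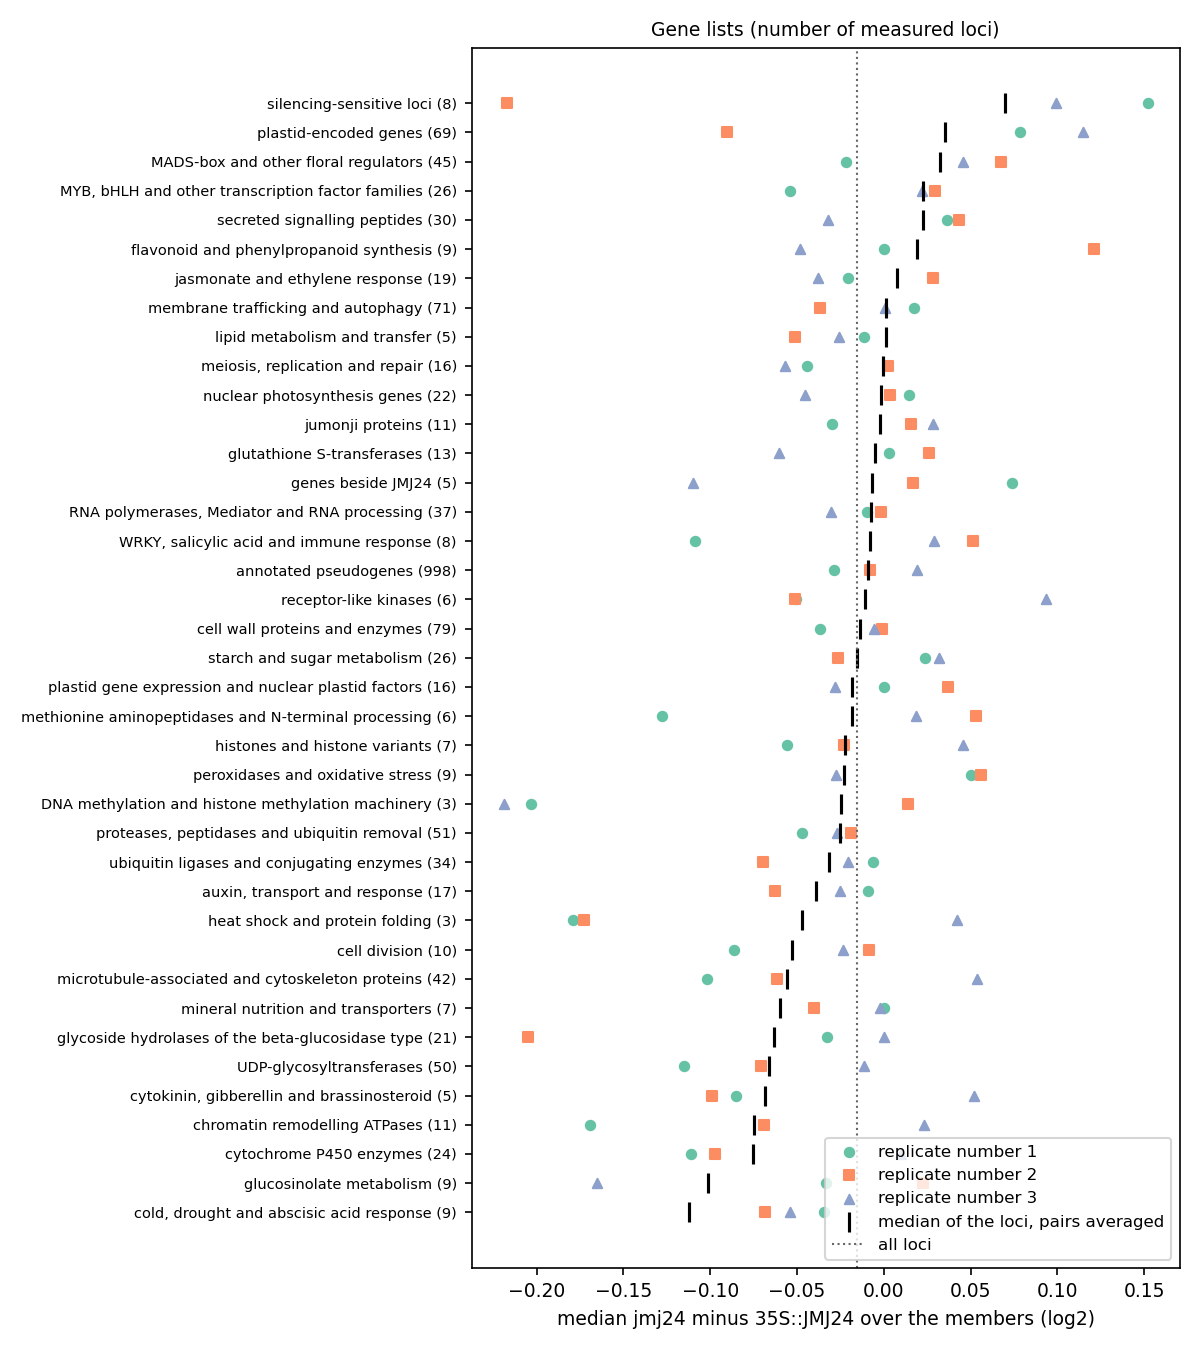
Median difference (jmj24 minus 35S::JMJ24, log2) of the 39 lists with at least 3 measured loci, with the number of loci in brackets, shown for each replicate number and, as a bar, for the loci averaged over the 3 pairs; the dotted line is all loci at -0.0157. The bars run from -0.112 to 0.0701, and for most lists the 3 replicate numbers fall on both sides of 0.

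Neighbouring genes were read beside the loci with the smallest p. For the 20 loci with the smallest p, 10 in each direction, the nearest measured locus within 3 loci was taken on either side. This gave 34 neighbours, and measured loci beyond the nearest were not read. Of these 16 had the sign of the locus they lie beside. A difference of at least 0.5 was reached by 2 of them, AT2G46915 and CYP71B31, both described above and each with the sign of its locus. The share of all loci with a difference of that size was not counted, so whether neighbours exceed it was not tested. AT5G39020, a receptor-like kinase 2 loci before AT5G39030, read 6.13, 6.56 and 6.85 in the mutant, against 5.79, 6.01 and 6.56 in 35S::JMJ24 (0.39, adjusted p = 0.254, limma). MAP1B had such a neighbour on 1 side only, AT3G25750, which differed by 0.03.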

How the data were processed

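Values are those the authors deposited, made with affy, a package for Affymetrix arrays, by the submitters' processing notes; its version and the background and normalization steps were not given in the sources used here. No source names the scale: values of 2.634 to 14.67 were read as log2 values, as deposited, and every fold rests on that. Array medians lay between 7.826 and 7.873.

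Of 22810 probe sets, 64 are controls and 22746 were tested. The platform annotation, updated through RefSeq's TAIR10.1 gene table, names 1 gene for 13513 probe sets, several for 503 and none for 8730. Of these, 13484 matched 13333 loci, and where probe sets share a locus, the brightest on average stands for it. No coordinates or sequences were used.

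The 6 arrays were grouped by title and fitted with limma 3.58.1 in R 4.3.3, with line and replicate number as terms (2 residual and 3.684 prior degrees of freedom), and p-values were Benjamini-Hochberg adjusted over all probe sets. The replicate block follows from the comparison, which sets arrays against each other within replicate number. Deviations from the line means correlated at 0.4269, 0.1726 and 0.1707 within the 3 numbers, and at -0.2471 to 0.077 between different numbers. Deviations cancel within a line, so the values within and between numbers are not independent. The median SE of a difference was 0.07575, and precision is limited by the number of arrays. The test was also run on simulated data, with normal errors and with spreads shuffled among probe sets. That run cannot show how the test behaves where spread depends on level.

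Named genes are JMJ24, QQS, the 15 largest differences each way among loci past the threshold with groups apart (where under 10 passed, the next by p up to 10), up to 4 per list by p, and up to 3 unnamed probe sets each way. The comparison, the lists and this rule were chosen with earlier results of these data known, and some lists were edited after the files were seen. Of the 47 lists, the cytosolic ribosomal and mitochondrial ones had 0 measured members. Alternatives were no block, all 9 arrays, renewed quantile normalization, the dimmer 50% left out, a variance prior with a trend, and leaving out each number or array.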

Additional observations from a re-analysis of the deposited data

How the results depend on the processing

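Without the replicate block 19 probe sets passed limma's test, all 19 lower in the mutant, and 8 of the 10 calls were among them. With all 9 arrays in the blocked fit 76 passed (12 higher and 64 lower in the mutant, 7 of them list members), and with a trended variance prior 96 passed (14 higher, 82 lower, 16 at 2-fold or more, 7 list members); both held all 10 calls. Renewed quantile normalization gave 13, of which 1 was higher, and also held all 10. Leaving out the dimmer 50% of probe sets, 38 passed (8 higher, 30 lower, 4 at 2-fold or more); 6 of the 10 calls were then not tested and the other 4 passed. Leaving out a replicate number, or a single array without the block, gave 0 to 7 calls, 0 to 7 of them lower, 0 to 7 at 2-fold or more and 0 to 1 list members, with the fewest without number 2. These fits have fewer arrays. No difference past the threshold changed sign under these alternatives. Over the named genes and probe sets and all alternatives, a call was lost 64 times and gained 37 times, with the same sign. The count of higher calls, 0 in the blocked fit of 6 arrays, thus depends on these settings, and the cause was not tested. Signal over background limits the size of 3 differences, AT4G04750, AT2G40570 and 249729_at. Their mutant means lie below the brightest bacterial control (5.862) and above the second brightest (4.639).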

Other observations

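Among the 16 probe sets at least 2-fold lower in the mutant, 5 were neither past the threshold nor in a list, and they are named here after their values were seen. AT1G23120 read 8.16, 7.90 and 8.12 in the mutant, against 9.13, 9.23 and 9.04 in 35S::JMJ24 (-1.07, adjusted p = 0.059, limma). The other 4 are unnamed: 257175_s_at (-1.27, adjusted p = 0.216), 251438_s_at (-1.10, 0.239), 250199_at (-1.05, 0.146) and 267412_at (-1.01, 0.101). In all 5, chosen by size, every mutant value lay below every 35S::JMJ24 value, as in 6.78% of all loci. Probe set 257175_s_at varied most within the mutant, at 6.43, 5.35 and 6.09, against 7.19, 7.28 and 7.19 in 35S::JMJ24.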
